A study of Homo sapiens with 6 samples.

Results

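The 10 genes described here encode glycosyl- and sulfotransferases of glycosphingolipid synthesis and were taken by symbol from a deposited table of 19672 genes, in which 10 of 10 were found. They are the glucosylceramide synthase UGCG, the lactosylceramide synthases B4GALT5 and B4GALT6, and 3 genes whose enzymes extend lactosylceramide (ST3GAL5, B3GNT5 and A4GALT). The other 4 act on longer chains or on galactosylceramide (ST3GAL2, ST6GALNAC5, FUT1 and GAL3ST1). All 10 passed the filter on low counts, as did 13299 genes in all, these included.

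Glycosphingolipids are membrane lipids built on ceramide in the Golgi, where glycosyltransferases add 1 sugar at a time and sulfotransferases can cap the chain with sulfate. A glucose is added first, then a galactose, which gives lactosylceramide. From there a single next sugar commits the chain to the ganglio, lacto/neolacto or globo series, so the relative amounts of the enzymes at that point help to set which lipids a cell shows on its surface. In colorectal cancers these lipids include blood group and sialylated antigens.

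The table holds messenger RNA read counts of SW620, an established human colorectal cancer line. Every group carried a lentiviral short hairpin RNA under selection with 1 µg/mL puromycin. Control cells carried a scrambled hairpin (scramble), and the knockdown lines C3 and C6 were made with hairpins against DKC1, the gene of dyskerin, a nucleolar protein that modifies ribosomal RNA and takes part in telomerase. Each group had 2 libraries, which the titles call biological replicates without saying whether they were separate cultures, so p-values measure the spread between libraries of a group, which may be technical. The labels do not say whether a line is a clone or a pool of transduced cells, and which of the DKC1 hairpins each line carries is not stated in the labels. No group had a further treatment.

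Library totals ran from 26077966 to 31021000 counts, and 3 counts corresponded to 0.0968 to 0.114 CPM (counts scaled to a common library size by the trimmed mean of M-values), a floor that covers counting error only. DKC1 levels were 320 and 315 CPM in the scramble libraries, 144 and 149 in the C3 libraries and 70.3 and 67.1 in the C6 libraries. In the labels, 1 C3 library is tagged as a control genotype. Its DKC1 level was that of the other C3 library, 144 against 149 CPM, and it was kept in C3 as titled. All 6 simple epithelial markers were above 1 CPM in every library, as were 3 of 5 intestinal markers (CDX2, VIL1 and CDH17). The intestinal markers CDX1 and LGALS4 were below it throughout, as were 4 of 5 immune markers, among them the leukocyte marker PTPRC. The immune marker LYZ was above it in every library, with means of 2.678, 1.909 and 2.192 CPM in scramble, C3 and C6. The endothelial marker VWF (4.705, 2.598 and 5.065 CPM) and the fibroblast markers LUM (16.197, 24.374 and 11.604 CPM), COL1A1 and PDGFRB were also above it in every library. CDX1 and PTPRC were at 0 counts in every library. The summed CPM of the 5 intestinal markers was 288 to 305 in scramble, 368 to 380 in C3 and 146 to 149 in C6, and that of 6 fibroblast markers, with COL1A2, COL3A1 and DCN at 0, was 23.1 to 24.1, 30.3 to 34.9 and 15.0 to 16.5. VIL1 made up most of the intestinal sum, with means of 292, 370 and 138 CPM, while CDX2 (2.604, 2.242 and 4.175 CPM) and CDH17 (1.283, 1.963 and 5.408 CPM) were highest in C6, where the sum was lowest. The summed CPM of the 6 epithelial markers was 8266 to 8934 in scramble, 6595 to 6814 in C3 and 9042 to 9146 in C6. Among them CDH1 had means of 225, 58.1 and 183 CPM in scramble, C3 and C6, and CLDN4 had 82.8, 92.4 and 231. These values move with the groups, and their part in the results was not tested.

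Promoter sequences are shown first for the genes that changed the same way in both lines, since a shared direction invites a look at shared sequence. The RefSeq promoter table (GRCh38.p14) held entries for 8 of the 10 genes, and not for B4GALT6 and ST3GAL2. Each sequence below covers the 250 bases before the gene's start, 5′ to 3′ on the gene's strand. Capitals mark the GC box GGGCGG and the CCAAT box CCAAT, read on either strand, so CCGCCC and ATTGG are the same boxes on the other strand. The entries are B4GALT5 (chr20:49713879-49714128, minus strand), B3GNT5 (chr3:183253003-183253252, plus strand), GAL3ST1 (chr22:30574666-30574915, minus strand) and ST6GALNAC5 (chr1:76867230-76867479, plus strand).
B4GALT5: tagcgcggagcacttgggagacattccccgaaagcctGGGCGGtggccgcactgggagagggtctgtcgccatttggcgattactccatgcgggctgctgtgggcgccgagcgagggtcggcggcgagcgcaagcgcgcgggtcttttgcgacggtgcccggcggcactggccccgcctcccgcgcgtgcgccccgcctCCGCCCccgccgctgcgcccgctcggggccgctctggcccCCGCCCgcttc
B3GNT5: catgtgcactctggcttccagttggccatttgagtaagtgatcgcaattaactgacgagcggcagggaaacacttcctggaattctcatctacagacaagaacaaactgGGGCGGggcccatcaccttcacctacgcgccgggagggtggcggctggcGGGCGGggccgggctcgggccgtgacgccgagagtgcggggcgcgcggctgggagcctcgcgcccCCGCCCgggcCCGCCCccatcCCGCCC
GAL3ST1: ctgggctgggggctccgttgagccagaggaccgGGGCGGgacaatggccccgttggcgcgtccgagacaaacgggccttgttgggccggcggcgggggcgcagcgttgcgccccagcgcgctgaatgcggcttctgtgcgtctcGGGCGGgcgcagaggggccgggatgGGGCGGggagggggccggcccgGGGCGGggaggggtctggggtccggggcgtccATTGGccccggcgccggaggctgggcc
ST6GALNAC5: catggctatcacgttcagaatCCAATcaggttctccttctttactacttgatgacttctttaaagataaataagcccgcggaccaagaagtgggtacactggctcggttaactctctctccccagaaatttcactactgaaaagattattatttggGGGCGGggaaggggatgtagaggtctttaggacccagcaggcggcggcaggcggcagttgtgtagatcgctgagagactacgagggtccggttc
The first 3 belong to genes that rose and the last to the gene that fell. A GC box was present in all 4 windows, 3 times in B4GALT5, 5 times in B3GNT5, 4 times in GAL3ST1 and 1 time in ST6GALNAC5. Among 35116 windows of the same length in the table, 42.6% held one. CCAAT occurred in GAL3ST1 and ST6GALNAC5, against 32.0% of all windows. The letters TATAAA (in 10.7% of all windows), CACGTG (6.34%), TGANTCA (6.57%) and CCGGAAGT (3.42%), searched on both strands, were not found in these 4 windows. The GC content was 75.6% for B4GALT5, 68.0% for B3GNT5, 78.4% for GAL3ST1 and 49.6% for ST6GALNAC5, against a median of 58.0% over all windows. The box was not particular to these genes, since UGCG, ST3GAL5, FUT1 and A4GALT, which were not called with the same sign in both lines, each had at least 1 window with it (3 boxes in UGCG and up to 7 in A4GALT). GAL3ST1 has 2 further starts in the table, which are not shown and whose windows hold 0 GC boxes. These are matches of letters and do not show that a factor binds.

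In C3, 4 of the 10 genes rose (B4GALT5, B3GNT5, ST3GAL2 and GAL3ST1) and 1 fell (ST6GALNAC5), at an adjusted p under 0.05 over all genes tested. Of all genes tested 24.3% were called in C3, with 12.4% higher and 11.9% lower. In C6 the same 4 rose and 3 fell (ST6GALNAC5, B4GALT6 and FUT1), against 46.7% of all genes called, 23.8% higher and 22.8% lower. The median log2 fold change of the 10 was 0.18 in C3 and −0.20 in C6, while the median over all genes tested was 0.0013 in C3 and −0.010 in C6. Genes called with the same sign in both lines numbered 5 of 10, against 10.0% of all genes. They were 4 higher in both, against 5.44% of all genes, and 1 lower in both, against 4.59%. Calls of opposite sign, which 4.93% of all genes had, numbered 0 among the 10 by edgeR's quasi-likelihood test, 0 by DESeq2 and 0 at an unadjusted p under 0.05. B4GALT6 and FUT1 were called in C6 but not in C3. The remaining 3 (UGCG, ST3GAL5 and A4GALT) were called in neither line. Both lines were set against the same scramble libraries, so their lists of calls are not independent. The 10 genes were chosen with earlier results of these data known, so these shares are a description and not a test of the set. Of the genes higher in both lines, B4GALT5 lost both calls when the shift of neighbouring genes on its chromosome was removed, as given below. These are bulk samples, in which fewer cells with a transcript and less of it per cell cannot be told apart. Without scramble replicate 1 the count of called genes in C3 was 2, and without C3 replicate 1 it was 3.

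**Figure D1:**
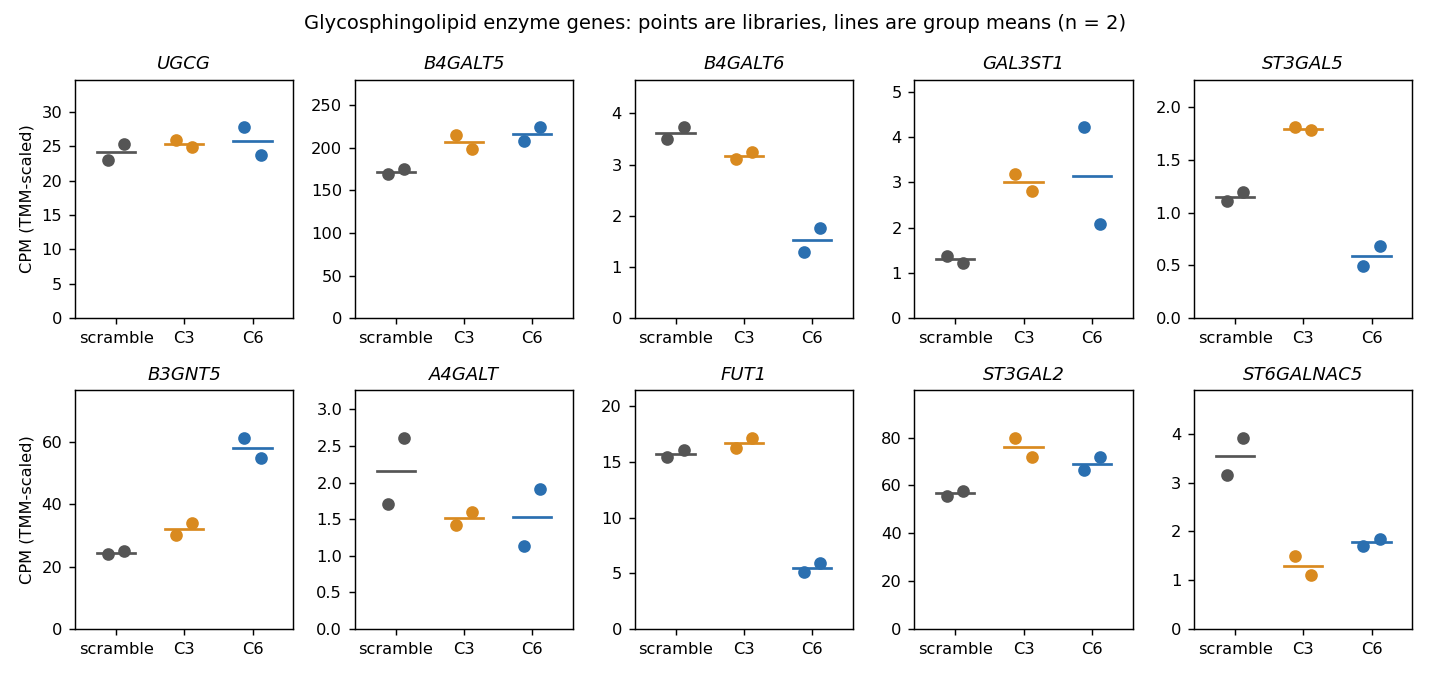
CPM of the 10 genes (y axis, from 0, a scale for each gene) in scramble, C3 and C6 libraries; points are libraries and lines are means of 2. B3GNT5 stands near 24.5 CPM in scramble and 58.0 in C6, FUT1 falls from 15.7 CPM in scramble to 5.51 in C6, and the UGCG libraries overlap.

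**Figure D2:**
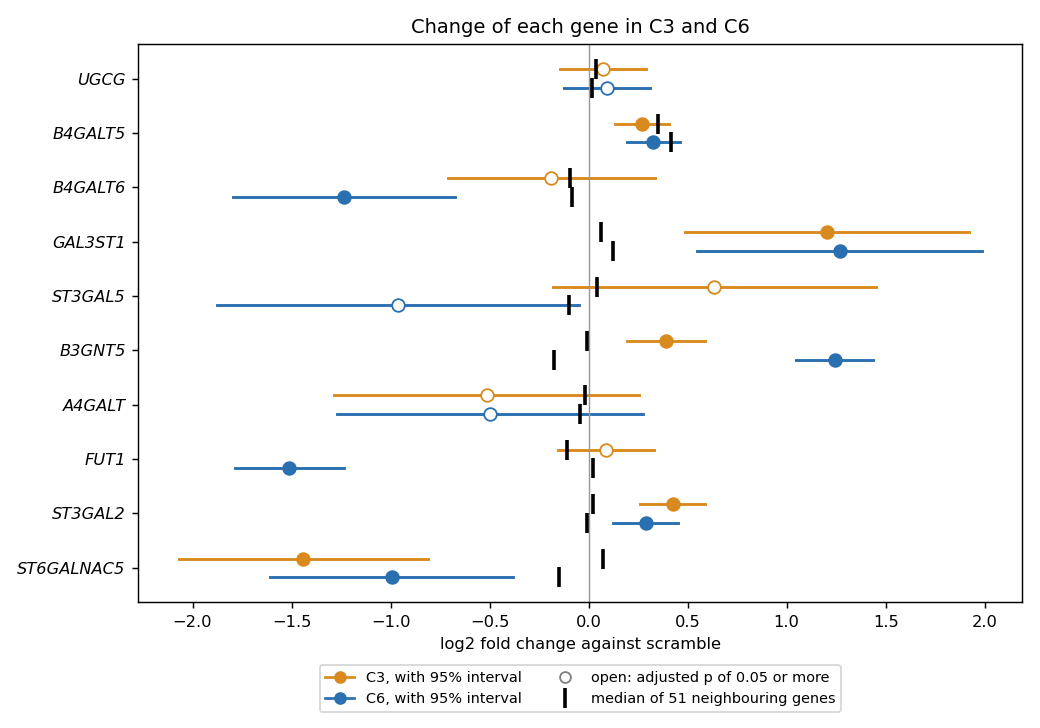
Log2 fold change against scramble (x axis) of each gene in C3 and C6, with 95% intervals; filled points passed an adjusted p of 0.05 and black ticks give the median of the 51 neighbouring genes on the chromosome. The ticks lie near 0 for most genes, and at 0.35 and 0.42 for B4GALT5, beyond its own points.

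The entry step showed no change that passed the test. UGCG, the ceramide glucosyltransferase that makes glucosylceramide (chromosome 9, 111896814 to 111935369; here and below RefSeq positions on GRCh38.p14), stood at 23.0 and 25.3 CPM in the scramble libraries, 26.0 and 24.9 in the C3 libraries and 27.8 and 23.8 in the C6 libraries. The libraries of the 3 groups overlapped. Its log2 fold change was 0.07 in C3 (95% interval −0.14 to 0.29) and 0.09 in C6 (−0.12 to 0.31), with adjusted p = 0.65 and 0.48. Changes of a size within these intervals cannot be told from no change.

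The next enzyme, lactosylceramide synthase, is encoded by the homologous genes B4GALT5 and B4GALT6. B4GALT5 (chromosome 20, 49632945 to 49713878) stood at 169 and 175 CPM in the scramble libraries, 215 and 199 in the C3 libraries and 207 and 224 in the C6 libraries. All 4 knockdown libraries lay above both scramble libraries. It rose by 0.27 ± 0.06 in C3 (log2, SE; adjusted p = 0.0058) and by 0.33 ± 0.06 in C6 (adjusted p = 0.00064), and C6 differed from C3 by 0.06 (−0.08 to 0.19). The 51 tested genes centred on it on chromosome 20 had a median log2 fold change of 0.35 in C3 and 0.42 in C6. In size these medians stood at percentile 98.3 and 90.8 of all such windows. With the neighbours' median removed, B4GALT5 stood at −0.08 in C3 (adjusted p = 0.4) and at −0.09 in C6 (adjusted p = 0.29), and the call was lost in both lines. For the other 9 genes the neighbours' median ran from −0.11 to 0.07 in C3 and from −0.18 to 0.12 in C6, and none of their calls against scramble changed. In C3 the call of B4GALT5 was also lost without scramble replicate 1 (0.25, adjusted p = 0.064) and without C3 replicate 1 (0.21, adjusted p = 0.1).

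B4GALT6 (chromosome 18, 31622246 to 31724641) was far scarcer, with 94 and 100 counts in the scramble libraries, 96 and 91 in the C3 libraries and 34 and 49 in the C6 libraries. In CPM these were 3.49 and 3.72, 3.10 and 3.24, and 1.29 and 1.76. The C6 libraries lay below all others, and both C3 libraries lay below scramble, a difference that did not pass the test. It fell by 1.24 on the log2 scale in C6 (SE 0.26, adjusted p = 0.0013), to 42.3% of scramble, while in C3 the value was −0.19 (−0.71 to 0.33, adjusted p = 0.63). The direct comparison gave C6 below C3 by a log2 difference of −1.05 ± 0.26 (adjusted p = 0.004). Per kilobase of exon, B4GALT5 made up 97.6% and 97.5% of the transcripts of both genes in the scramble libraries, 98.3% and 98.1% in the C3 libraries and 99.25% and 99.05% in the C6 libraries. Exons of B4GALT6 overlap an antisense transcript over 107 bases.

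**Figure D3:**
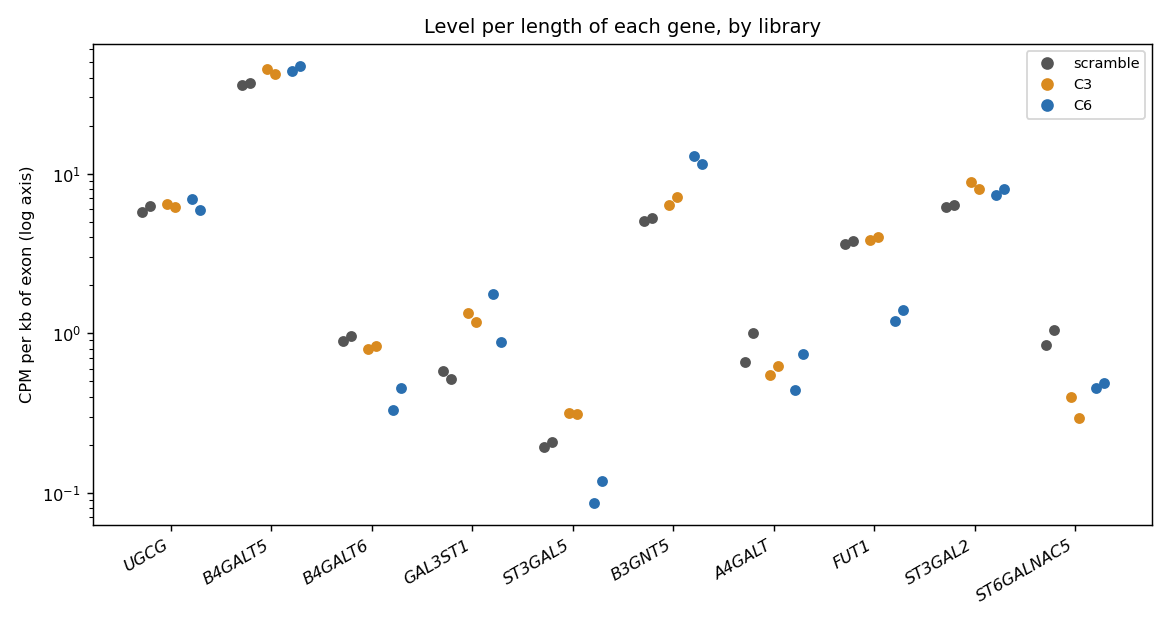
Level per length (CPM per kilobase of exon, log axis) of each gene in each library, ordered along the pathway. B4GALT5 is the highest of the 10 in every library, between 35.8 and 47.3, and ST3GAL5 is the lowest by group mean in each group. In C3 the libraries of ST3GAL5 overlap those of ST6GALNAC5. By the longest transcript in place of merged exons, ST6GALNAC5 is the lower of the 2 in C3 (0.345 against 0.405).

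Lactosylceramide is the point where the series part. B3GNT5, the N-acetylglucosaminyltransferase that starts the lacto/neolacto series (chromosome 3, 183253253 to 183273385), stood at 24.0 and 25.0 CPM in the scramble libraries, 30.2 and 34.1 in the C3 libraries and 61.3 and 54.8 in the C6 libraries. The groups did not overlap, and C6 lay above C3. It rose by 0.39 ± 0.09 in C3 (adjusted p = 0.0058) and by 1.24 ± 0.09 in C6 (adjusted p = 4.7e-08), and C6 exceeded C3 by 0.85 ± 0.09 (adjusted p = 1.4e-06). In C3 the call was lost without scramble replicate 1 (0.36, adjusted p = 0.058) and without C3 replicate 2 (0.30, adjusted p = 0.09). Exons of B3GNT5 overlap exons of MCF2L2 on the opposite strand over 1315 bases, and MCF2L2 had at most 1 count in any library. Its neighbours did not rise, with a median of −0.01 in C3 and −0.18 in C6. With these removed, B3GNT5 stood at 0.40 in C3 and 1.42 in C6.

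ST3GAL5, the GM3 synthase that sialylates lactosylceramide and opens the ganglio series (chromosome 2, 85837120 to 85889034), had few reads: 30 and 32 counts in the scramble libraries, 56 and 50 in the C3 libraries and 13 and 19 in the C6 libraries. In CPM the C3 libraries (1.81 and 1.78) lay above scramble (1.11 and 1.19) and the C6 libraries (0.494 and 0.683) below it. Neither difference from scramble passed the test. The log2 fold change stood at 0.64 in C3 (−0.18 to 1.45, adjusted p = 0.26) and at −0.96 in C6 (−1.88 to −0.05, adjusted p = 0.079). The lines differed from each other by −1.60 ± 0.41 (C6 minus C3, adjusted p = 0.0047). At this depth the counting error alone amounts to an SD of 0.28 to 0.52 on the log2 scale for the difference between 2 libraries of a group.

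A4GALT, the Gb3 synthase that opens the globo series (chromosome 22, 42692121 to 42721301), had 46 and 70 counts in the scramble libraries, 44 and 45 in the C3 libraries and 30 and 53 in the C6 libraries. The 2 libraries of scramble differed by 0.61 on the log2 scale and those of C6 by 0.74. C6 libraries overlapped scramble, while C3 libraries lay just below both. No difference passed the test, with the log2 fold change at −0.51 in C3 (−1.28 to 0.26, adjusted p = 0.34) and at −0.50 in C6 (−1.27 to 0.28, adjusted p = 0.28). These intervals also hold falls of more than 2-fold.

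Set side by side per kilobase of exon within a library, which needs no scaling between libraries, B3GNT5 made up most of the transcripts of these 3 genes. Its share was 85.4% and 81.2% in the scramble libraries, 88.0% and 88.5% in the C3 libraries and 96.1% and 93.0% in the C6 libraries. A4GALT held 11.3% and 15.6% in the scramble libraries, 7.64% and 7.68% in the C3 libraries and 3.30% and 5.99% in the C6 libraries. The share of ST3GAL5 was 3.30% and 3.22% in the scramble libraries, 4.38% and 3.84% in the C3 libraries and 0.645% and 0.966% in the C6 libraries. C6 thus stood apart in all 3 shares, with each of its libraries beyond those of the other groups. The shares in a library are parts of the same total, so a rise of B3GNT5 alone lowers the other shares. They are therefore not separate results. In level, A4GALT showed no difference between C6 and C3 that passed the test (log2 difference 0.016, adjusted p = 0.97). ST3GAL5 was lower in C6 than in C3 (−1.60, adjusted p = 0.0047). In raw counts there were 21.5 and 21.0 reads of B3GNT5 for each read of ST3GAL5 in the scramble libraries, 16.7 and 19.2 in the C3 libraries and 124 and 80.2 in the C6 libraries. These shares are of messenger RNA, and enzyme activity and lipids were not measured in these files.

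**Figure D4:**
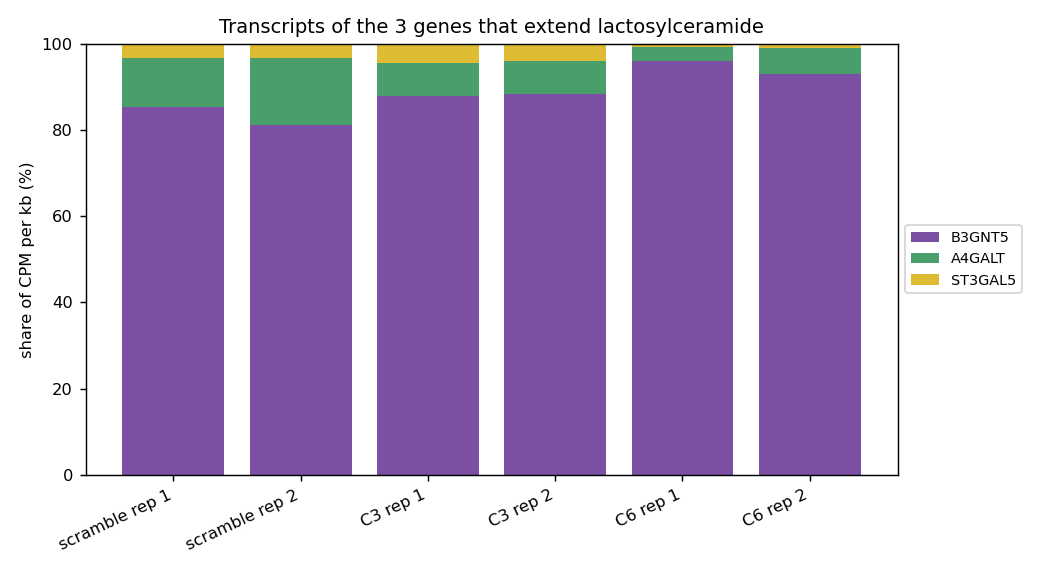
Shares (y axis, percent of CPM per kilobase of exon) of B3GNT5, A4GALT and ST3GAL5 in each of the 6 libraries; each bar adds to 100. B3GNT5 takes 81.2% to 88.5% in scramble and C3 and 93.0% to 96.1% in C6.

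Enzymes that cap longer chains moved in different directions. ST3GAL2, a sialyltransferase of terminal galactose on gangliosides and O-glycans (chromosome 16, 70375977 to 70439100), stood at 55.6 and 57.7 CPM in the scramble libraries, 79.8 and 72.1 in the C3 libraries and 66.4 and 72.0 in the C6 libraries. Both lines lay above scramble in every library. It rose by 0.42 ± 0.08 in C3 (adjusted p = 0.00078) and by 0.29 ± 0.08 in C6 (adjusted p = 0.0061), and C6 and C3 differed by −0.14 (−0.30 to 0.03). The call in C6 was lost without scramble replicate 1 (0.26, adjusted p = 0.052) and without C6 replicate 2 (0.23, adjusted p = 0.06). Its exons overlap an antisense transcript over 590 bases.

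ST6GALNAC5, which adds a branching sialic acid to gangliosides (chromosome 1, 76867480 to 77067546), had 85 and 105 counts in the scramble libraries, 46 and 31 in the C3 libraries and 45 and 51 in the C6 libraries. These were 3.16 and 3.91, 1.48 and 1.10, and 1.71 and 1.83 CPM. All 4 knockdown libraries lay below scramble. It fell by 1.44 on the log2 scale in C3 (SE 0.30, adjusted p = 0.0021) and by 0.99 in C6 (SE 0.29, adjusted p = 0.01), to 36.6% and 50.1% of scramble. C6 and C3 differed by 0.45 (−0.21 to 1.11, adjusted p = 0.25). In C6 the call was lost without scramble replicate 2 (−0.83, adjusted p = 0.1) and without C6 replicate 1 (−0.94, adjusted p = 0.052).

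FUT1, the fucosyltransferase that makes the H antigen on galactose (chromosome 19, 48748011 to 48755358), stood at 15.4 and 16.0 CPM in the scramble libraries, 16.3 and 17.1 in the C3 libraries and 5.09 and 5.93 in the C6 libraries. The C6 libraries lay far below the rest, and both C3 libraries lay just above scramble, a difference that did not pass the test. It fell by 1.51 on the log2 scale in C6 (SE 0.13, adjusted p = 2e-07), to 35.0% of scramble. In C3 the value was 0.09 (−0.16 to 0.33, adjusted p = 0.63). The difference between the lines was −1.60 ± 0.13 (C6 minus C3, adjusted p = 8e-08). Under the 15 other ways of processing tried, the value in C6 ranged from −1.62 to −1.41 and always passed the test.

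GAL3ST1, the cerebroside sulfotransferase that makes sulfatide and sulfated lactosylceramide (chromosome 22, 30554635 to 30574665), had 37 and 33 counts in the scramble libraries, 99 and 79 in the C3 libraries and 111 and 58 in the C6 libraries. In CPM it stood at 1.37 and 1.23, 3.20 and 2.81, and 4.22 and 2.09. All 4 knockdown libraries lay above scramble, but the C6 libraries differed from each other by 1.02 on the log2 scale, against an SD of 0.23 from counting alone. It rose by 1.20 ± 0.34 in C3 (adjusted p = 0.016) and by 1.27 ± 0.34 in C6 (adjusted p = 0.0063), which is 2.30-fold and 2.41-fold. Without C6 replicate 1 the value in C6 was 0.68 (adjusted p = 0.14), and without scramble replicate 2 it was 1.19 (adjusted p = 0.059). In C3 the call was lost without scramble replicate 1 (1.29, adjusted p = 0.077), scramble replicate 2 (1.13, adjusted p = 0.12) or C3 replicate 1 (1.11, adjusted p = 0.07).

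**Figure D5:**
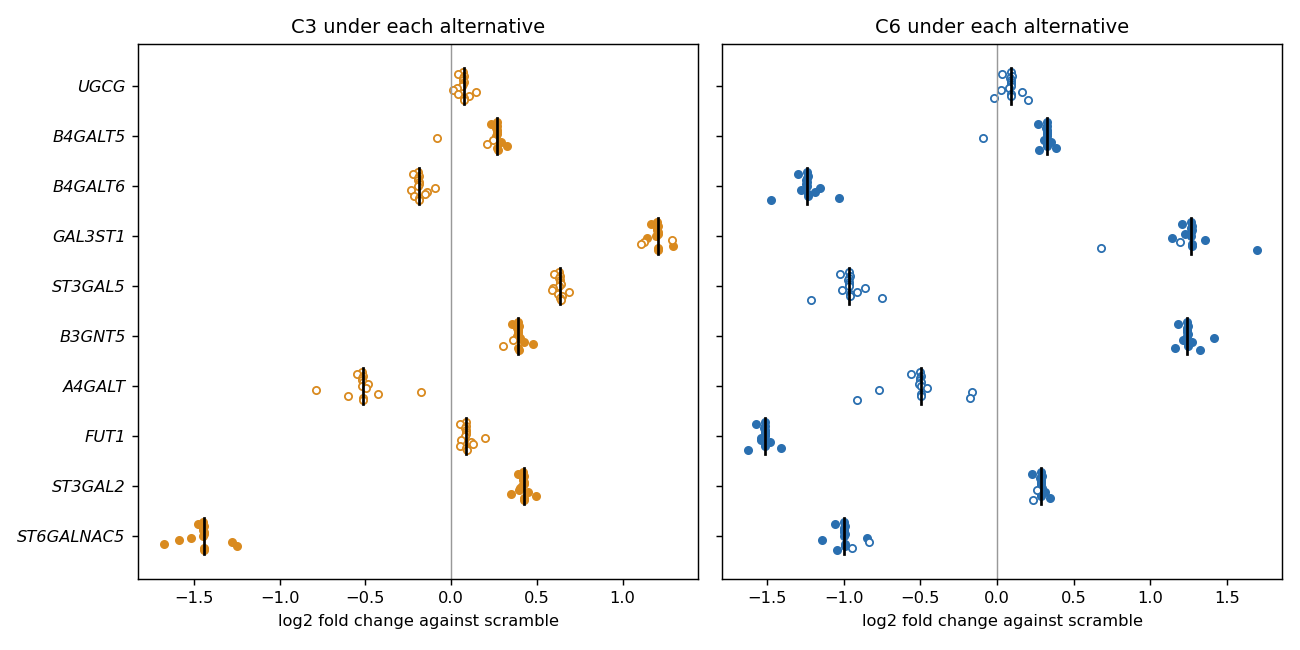
Log2 fold change against scramble (x axis) of each gene in C3 (left) and C6 (right) under 15 alternatives; black lines give the main value, and filled points passed an adjusted p of 0.05. The single point of B4GALT5 on the left of 0 in each panel, −0.08 and −0.09, is the fit with the neighbours' median removed; FUT1 stays between −1.62 and −1.41 in C6.

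Levels of different genes were compared per kilobase of exon, in scramble first. B4GALT5 was highest at 36.4 ± 0.863 CPM per kilobase (SD, n = 2), followed by ST3GAL2 at 6.29 ± 0.162 and UGCG at 6.03 ± 0.397, whose libraries overlapped. B3GNT5 came next at 5.12 ± 0.151 and FUT1 at 3.69 ± 0.105. Lower still, ST6GALNAC5 (0.942 ± 0.142), B4GALT6 (0.927 ± 0.0421) and A4GALT (0.834 ± 0.245) could not be told apart by their libraries. GAL3ST1 (0.547 ± 0.0433) and ST3GAL5 (0.201 ± 0.00948) were lowest. In C6 the order was different: B3GNT5 was second at 12.1 ± 0.961, GAL3ST1 (1.32 ± 0.633) overlapped FUT1 (1.29 ± 0.140), and B4GALT6 was ninth at 0.392 ± 0.0855. UGCG and B3GNT5 overlapped in C3, where they stood at 6.34 ± 0.192 and 6.73 ± 0.572. These levels use the merged exons of each gene, and the distance between genes depends on that choice. By the longest transcript B3GNT5 stood at 7.81 in C3 against 6.34 for UGCG, and at 5.94 in scramble against 6.03.

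In the mean of both lines against scramble, 4 of the 10 genes rose (B4GALT5, B3GNT5, ST3GAL2 and GAL3ST1) and 3 fell (B4GALT6, FUT1 and ST6GALNAC5), against 32.9% of all genes called, 16.6% higher and 16.3% lower. This comparison uses the spread between libraries of a group and not the difference between the lines. B4GALT6 (−0.19 in C3, −1.24 in C6) and FUT1 (0.09 in C3, −1.51 in C6) were called in C6 only. The largest rise was that of GAL3ST1 at 1.24 ± 0.30 (adjusted p = 0.0056) and the largest fall that of ST6GALNAC5 at −1.22 ± 0.24 (adjusted p = 0.0013). With upper-quartile scaling the share of all calls that were higher went from 50.5% to 37.2%, and the counts of these genes stayed at 4 and 3. With all 4 knockdown libraries pooled into 1 group, edgeR's quasi-likelihood test called 0 of the 10 genes, and 5 had an unadjusted p under 0.05; the smallest adjusted p was 0.14, and no other tool was run on that grouping. In the mean the call of B4GALT6 (−0.71, adjusted p = 0.019) was lost with DESeq2 (adjusted p = 0.069) and without scramble replicate 1 (−0.76, 0.074), scramble replicate 2 (−0.66, 0.13) or C6 replicate 1 (−0.61, 0.05). That of GAL3ST1 was lost without scramble replicate 2 (1.16, 0.078).

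C6 was then compared with C3 directly. Of the 10 genes, 1 was higher in C6 (B3GNT5) and 3 were lower (B4GALT6, ST3GAL5 and FUT1), against 49.2% of all genes called, 25.1% higher and 24.1% lower. The 4 calls held under each of the 15 alternatives. For the other 6 genes the difference ran from −0.14 for ST3GAL2 to 0.45 for ST6GALNAC5, and the 95% intervals reached down to −0.77 for A4GALT and up to 1.11 for ST6GALNAC5.

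Steps next to these enzymes were examined for genes chosen by their place in the pathway after the values were seen. UGT8, which makes the galactosylceramide that GAL3ST1 sulfates, stood at 9.14 and 10.7 CPM in the scramble libraries, 10.2 and 9.68 in the C3 libraries and 10.6 and 10.9 in the C6 libraries, with a log2 fold change of 0.00 (−0.28 to 0.28) in C3 and 0.12 (−0.16 to 0.40) in C6. B4GALNT1, which extends the product of ST3GAL5 to complex gangliosides, stood at 17.3 and 16.6 CPM in the scramble libraries, 24.5 and 18.3 in the C3 libraries and 25.4 and 31.1 in the C6 libraries. It rose by 0.74 ± 0.14 in C6 (adjusted p = 0.00076), and its value in C3 was 0.34 (0.03 to 0.64, adjusted p = 0.1). ST8SIA1, the GD3 synthase, which also acts on the product of ST3GAL5, had 37 and 17 counts in the scramble libraries, 17 and 14 in the C3 libraries and 12 and 7 in the C6 libraries. Its log2 fold change did not pass the test, at −0.93 in C3 (−2.16 to 0.30, adjusted p = 0.27) and at −1.50 in C6 (−2.81 to −0.19, adjusted p = 0.057). The B3GALT4 gene, whose enzyme adds the next galactose, had at most 6 counts in any library and was not tested.

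Among 26 tested genes of a list of 38 other glycosphingolipid glycosyltransferases, 2 rose and 7 fell in C3, against 24.3% of all genes called. In C6, 7 rose and 6 fell, against 46.7% of all genes called. The medians of this list were −0.24 and −0.04. In both lines 3 of this list fell, against 4.59% of all genes, and 0 rose. Another 3 were called with opposite signs in the 2 lines, against 4.93% of all genes. Those that fell in both were ABO, the blood group transferase, and B4GALNT2 and B4GALNT3, which add N-acetylgalactosamine to terminal chains. B4GALNT2 is named after its values were seen. ABO stood at 2.64 CPM in scramble, at 0.711 in C3 (−1.89 ± 0.39, adjusted p = 0.0021) and at 1.27 in C6 (−1.05 ± 0.36, adjusted p = 0.027). In C6 its call was lost with DESeq2 (−1.06, 0.067) and without scramble replicate 1 (−1.19, 0.063), scramble replicate 2 (−0.90, 0.17) or C6 replicate 1 (−0.74, 0.17). B4GALNT3 stood at 14.1 CPM in scramble, at 6.60 in C3 (−1.09 ± 0.14, adjusted p = 3.3e-05) and at 6.05 in C6 (−1.22 ± 0.14, adjusted p = 5e-06). B3GALNT1, the globoside synthase that follows A4GALT, fell in C6 from 8.44 to 2.55 CPM (−1.73 ± 0.17, adjusted p = 8.5e-07) and stood at 10.5 CPM in C3 (0.31, adjusted p = 0.14). ST6GAL1, a sialyltransferase mainly of N-glycans, fell in C6 from 32.1 to 6.85 CPM (−2.23 ± 0.13, adjusted p = 4.2e-09), with 31.1 CPM in C3 (−0.04, adjusted p = 0.82). Neighbours of ST6GAL1 on chromosome 3 had a median of −0.44 in C6, and with it removed its value was −1.79 (adjusted p = 5.1e-08).

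Homologs of the 10 genes were counted as a list of 26, of which 18 were tested and 12 are also in the list above. In C3, 6 of them fell and 12 were not called, against 24.3% of all genes called. In C6, 6 rose and 2 fell, against 46.7% of all genes called. The medians of this list were −0.24 in C3 and 0.24 in C6. B3GNT3, which extends core O-glycans, fell in C3 (−0.61 ± 0.08, adjusted p = 3.3e-05) and was higher in C6 (0.24 ± 0.08, adjusted p = 0.016), where the call was lost without scramble replicate 1 (0.25, 0.062), scramble replicate 2 (0.24, 0.073) or C6 replicate 2 (0.16, 0.15), and with upper-quartile scaling (0.18, 0.059). B3GNT2, a polylactosamine synthase, fell in C6 from 20.5 to 15.5 CPM (−0.41 ± 0.10, adjusted p = 0.0045) and stood at 17.7 CPM in C3 (−0.21, adjusted p = 0.15). B4GALT2, a galactosyltransferase, rose in C6 from 50.8 to 65.1 CPM (0.36 ± 0.07, adjusted p = 0.00084), with 48.1 CPM in C3 (−0.08, adjusted p = 0.48). GAL3ST2, a sulfotransferase of galactose, fell in C6 from 3.01 to 1.51 CPM (−0.99 ± 0.30, adjusted p = 0.013), with 3.45 CPM in C3 (0.20, adjusted p = 0.65). Its call was lost without scramble replicate 1 (−1.01, 0.052), scramble replicate 2 (−0.97, 0.065) or C6 replicate 1 (−0.83, 0.093), and with the neighbours' median removed (−0.63, 0.1). With DESeq2 3 genes of this list were called in C3, and without C3 replicate 1 or replicate 2 there were 2; without either scramble replicate there were 3.

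Donor sugars and sulfate must reach the Golgi for these enzymes to work. Of 21 genes for donors and their carriers, 3 rose and 3 fell in C3, against 24.3% of all genes called. In C6, 6 rose and 4 fell, against 46.7% of all genes called. The medians of this list were −0.04 in C3 and 0.08 in C6. GALK1, the galactokinase, rose in both lines, from 5.43 CPM in scramble to 11.4 in C3 (1.07 ± 0.15, adjusted p = 8.6e-05) and to 8.11 in C6 (0.58 ± 0.15, adjusted p = 0.0061). In C6 that call was lost without scramble replicate 1 (0.46, adjusted p = 0.065). GMDS, which starts GDP-fucose synthesis, rose in both lines, from 104 CPM in scramble to 130 in C3 (0.33 ± 0.07, adjusted p = 0.0022) and to 121 in C6 (0.22 ± 0.07, adjusted p = 0.015). In C6 its call was lost with upper-quartile scaling (0.16, 0.074), with the neighbours' median removed (0.15, 0.082), and without scramble replicate 2 (0.17, 0.14) or C6 replicate 1 (0.15, 0.13). SLC35A2, the Golgi carrier of UDP-galactose, fell in C3 from 57.1 to 32.9 CPM (−0.80 ± 0.08, adjusted p = 3.2e-06) and stood at 59.6 CPM in C6 (0.06, adjusted p = 0.55). GNE, which starts sialic acid synthesis, rose in C6 from 8.46 to 14.8 CPM (0.80 ± 0.14, adjusted p = 0.00022). The count of calls in C6 was 10, against 6 with DESeq2, 5 without scramble replicate 1, 6 without C6 replicate 1 and 5 without C6 replicate 2.

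Of 10 genes for the transfer of glycosphingolipids and the placement of their enzymes, 1 fell and 9 were not called in C3. In C6, 6 rose and 2 fell. Over all genes, 24.3% were called in C3 and 46.7% in C6. The median of this list was −0.01 in C3 and 0.31 in C6. GOLPH3, which keeps glycosyltransferases in the Golgi, rose in C6 from 92.9 to 141 CPM (0.60 ± 0.06, adjusted p = 1.6e-06). PLEKHA8, also called FAPP2, which carries glucosylceramide towards the later enzymes, rose in C6 from 32.1 to 49.2 CPM (0.62 ± 0.09, adjusted p = 5.3e-05). The neighbours of these genes had medians of 0.30 and 0.35 in C6, and with them removed the values were 0.30 (adjusted p = 0.0012) and 0.27 (adjusted p = 0.026). LAPTM4A, needed for A4GALT activity, rose in C6 by 0.56 ± 0.08 (adjusted p = 4.4e-05), while TM9SF2, another factor of that step, fell by 0.44 on the log2 scale (SE 0.07, adjusted p = 5.9e-05) among neighbours with a median of −0.51. With these removed, TM9SF2 stood at 0.066 (adjusted p = 0.45). Without scramble replicate 1 the calls of this list in C6 numbered 5, and the 1 call in C3 was lost without scramble replicate 2.

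Breakdown genes were mixed. Of 17 tested, 2 rose and 4 fell in C3, against 24.3% of all genes called. In C6, 6 rose and 3 fell, against 46.7% of all genes called. The medians of this list were −0.05 in C3 and 0.14 in C6. GM2A, the activator that presents gangliosides to the lysosomal hexosaminidase, fell in C6 from 8.59 to 4.41 CPM (−0.96 ± 0.16, adjusted p = 0.00017). SCARB2, the carrier of glucocerebrosidase to lysosomes, rose there from 66.9 to 85.1 CPM (0.35 ± 0.07, adjusted p = 0.00059). CTSA, the protective protein of lysosomal galactosidase and sialidase, rose from 36.2 CPM in scramble to 64.9 in C3 (0.84 ± 0.08, adjusted p = 2.7e-06) and to 63.9 in C6 (0.82 ± 0.08, adjusted p = 1.2e-06). Like B4GALT5 it lies on chromosome 20, among neighbours with medians of 0.37 and 0.45, and with these removed it stood at 0.47 (adjusted p = 0.00066) and 0.37 (adjusted p = 0.0023). SUMF1, which activates sulfatases, fell in both lines, from 10.5 CPM to 7.10 in C3 (−0.56 ± 0.14, adjusted p = 0.0096) and to 5.47 in C6 (−0.94 ± 0.15, adjusted p = 0.00011). In C3 its call was lost without scramble replicate 1 (−0.49, 0.082), C3 replicate 1 (−0.54, 0.06) or C3 replicate 2 (−0.58, 0.051). Without scramble replicate 1 the calls of the list in C3 numbered 3 in place of 6.

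For 9 of the 10 genes the gene with the most similar profile over the 6 libraries is given, out of 12039 genes of at least 1 CPM. The measure was the root mean square difference of log2 CPM after centring each gene on its mean, and it is given as a description of 6 libraries in 3 groups. GADD45A, a stress-induced growth arrest gene, lay nearest to B3GNT5 at 0.0492, with 201 and 192 CPM in the scramble libraries, 250 and 274 in the C3 libraries and 468 and 440 in the C6 libraries. For FUT1 it was the pyruvate dehydrogenase kinase PDK3 at 0.0591, and for B4GALT6 TBC1D30 at 0.0436. ST6GALNAC5 was nearest to the activin-type receptor ACVR1C at 0.114, GAL3ST1 to the kinase SRPK3 at 0.18 and A4GALT to the anion exchanger SLC4A3 at 0.086. Profiles with little change had many near neighbours: 901 genes lay within 0.1 of UGCG, with PIK3CA nearest at 0.0237, 526 of B4GALT5 (TEX261, 0.032) and 195 of ST3GAL2 (THRA, 0.0266). Between genes of the pathway set, B4GALT5 and ST3GAL2 were the nearest to each other at 0.0837. UGCG lay nearest to B4GALT5 at 0.143, and FUT1 and B4GALT6 were each other's nearest at 0.236.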

How the data were processed

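Messenger RNA of 6 SW620 libraries was measured, 2 each for scramble, C3 and C6. The deposited table holds raw read counts per gene, which the authors made from reads of a stranded kit; the submitters' processing notes name Trimmomatic 0.38, HISAT2 2.1.0, StringTie 2.1.3b, DESeq2 and the hg38 build, without roles or order. How reads in overlapping genes or on either strand were counted is not stated in the labels or headers. The 10 genes and the gene lists were chosen with earlier results of these data known.

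Counts were tested with edgeR 4.0.16 (R 4.3.3) by the robust quasi-likelihood test after TMM scaling and the filterByExpr filter, in 1 fit of 3 groups with 3 residual degrees of freedom. The comparisons were C3, C6 and their mean against scramble, and C6 against C3, with Benjamini-Hochberg adjustment over 13299 genes and a threshold of 0.05. Errors on fold changes are standard errors, and intervals are 95%. The fits were checked on simulated data with the same spread for all genes and the same changes in both lines. These data differ from that setting, since many genes differed between the lines. Alternatives were other scalings and filters, DESeq2 1.42.0, no robust shrinkage, a replicate block, fits of only the groups compared, removal of the median of 51 neighbouring genes, and leaving out each library. The alternatives for genes outside the 10 were added after seeing the data. Exon lengths came from GENCODE v29 and positions from RefSeq. From each pathway list up to 4 genes were named, taking the lowest unadjusted p for both lines' mean among genes averaging at least 1 CPM, and for each of the 10 genes the 1 gene of nearest profile; for ST3GAL5 that gene is not reported here. Averaged over genes, replicates of a group differed by 5.97 to 8.07 times the counting variance, so none was a copy of the other's counts. This does not show whether they came from separate cultures.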

Additional observations from a re-analysis of the deposited data

Results flagged for a closer look

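The effects of the 2 knockdown lines differed for 4 of the 10 genes by the direct test of C6 against C3 (edgeR's quasi-likelihood test, adjusted over all genes). B3GNT5 was higher in C6 by 0.85 on the log2 scale (adjusted p = 1.4e-06). The differences of FUT1 (−1.60, adjusted p = 8e-08), ST3GAL5 (−1.60, adjusted p = 0.0047) and B4GALT6 (−1.05, adjusted p = 0.004) were below 0. For each of the 4 genes both C6 libraries lay on one side of both C3 libraries. The same was true of ST3GAL2 (C6 below C3) and ST6GALNAC5 (C6 above C3), which were not called. The share of all genes with such separation was not computed, so it adds no support to the calls. Over all genes 49.2% were called in this comparison.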

How the results depend on the processing

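Over 15 alternatives, 560 values of the 10 genes kept their direction and side of the threshold, 25 kept only the direction and 15 changed sign. With the 4 knockdown libraries as 1 group, 0 of the 10 genes were called in the mean comparison, and ST3GAL5 stood at 0.050. Leaving out 1 library gave 2 to 5 called genes in C3, 5 to 7 in C6, 5 to 7 in the mean and 4 to 4 in C6 against C3. With the neighbours' median removed, B4GALT5 stood at −0.081 (C3), −0.088 (C6), −0.085 (mean) and −0.0070 (C6 minus C3), and TM9SF2 at 0.066 (C6) and 0.15 (C6 minus C3). The other changes of sign were in differences that did not pass the test. Leaving out 1 library moved C6 minus C3 of UGCG between −0.094 and 0.13, of A4GALT between −0.40 and 0.34 and of GAL3ST1 between −0.53 and 0.49, and UGCG in C6 between −0.020 and 0.20. For C6 minus C3, UGCG gave −0.0051 with upper-quartile scaling, −0.010 without C3 replicate 2 and −0.094 without C6 replicate 1; A4GALT gave −0.0096 with upper-quartile scaling, −0.022 with the replicate block, −0.069 without C3 replicate 1 and −0.40 without C6 replicate 2; GAL3ST1 gave −0.024 without C3 replicate 2 and −0.53 without C6 replicate 1. UGCG in C6 stood at −0.020 without C6 replicate 1. The cause of these changes was not tested. With the replicate block, 5, 7, 7 and 4 genes were called in the 4 comparisons, as without it. The differences of replicate 2 minus replicate 1 (log2 CPM) were correlated over genes between the groups. The correlations were −0.047 (scramble with C3), 0.064 (scramble with C6) and 0.025 (C3 with C6), so the numbers were not taken as pairs. Where a group kept 1 library, that library was assumed to vary like the others. Depth limits ST3GAL5, with 13 counts in its lowest library, and likewise A4GALT, GAL3ST1, B4GALT6 and ST6GALNAC5.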
